A study of Mus musculus with 6 samples.

Results

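The suppressor of cytokine signaling (SOCS) family was followed in resting bone-marrow-derived macrophages (BMDMs) with and without CITED2. Its 8 genes are *Socs1* to *Socs7* and *Cish*, and they were taken by gene symbol from the 22248 genes listed. RNAseq had been performed on 6 libraries, 3 from control *Lyz2cre* mice and 3 from CITED2-deficient *Cited2fl/fl:Lyz2cre* mice, so one comparison follows from the design, which asks what myeloid CITED2 deficiency changes in unstimulated macrophages. All mice were C57BL/6, the labels give an age of 10 weeks (the methods of the study give a younger age), and both genotypes carried a single *Lyz2* Cre allele. In the CITED2-deficient mice both *Cited2* alleles were also floxed, so that Cre made from the *Lyz2* locus deletes *Cited2* in cells of the myeloid lineage. Bone marrow cells were differentiated in macrophage colony-stimulating factor, and no other stimulus is given for these libraries. The labels number the replicates but do not tie each to 1 mouse, so p-values measure the spread between these libraries.

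SOCS proteins are brakes on cytokine receptors. A cytokine activates Janus kinases (JAKs) on its receptor, these phosphorylate STAT transcription factors, and the STATs switch on *Socs* genes among their targets. The SOCS protein made in this way binds the receptor or the kinase through its SH2 domain and recruits a cullin-5 ubiquitin ligase through its SOCS box. *Socs1*, *Socs2*, *Socs3* and *Cish* are the classical cytokine-induced members, whereas *Socs4* to *Socs7* are known mainly for acting on growth factor receptors and their adaptors.

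*Socs1* was the member that passed the threshold, and its level was higher in CITED2-deficient BMDMs. The gene entered the test through its CITED2-deficient values, and 16.7% of all tested genes passed as higher. *Cish* and *Socs2* had values in the 3 CITED2-deficient libraries above all 3 control values, but neither passed in the FPKM analysis. *Socs3*, *Socs4*, *Socs5*, *Socs6* and *Socs7*, which made up most of the summed FPKM of the family, did not pass. The targeted gene was examined first. Control libraries had 71.7, 79.3 and 75.5 FPKM of *Cited2* (fragments per kilobase, relative to library size) against 9.27, 7.22 and 7.53 FPKM with CITED2 deficiency, so every library matched its label.

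**Figure D1:**
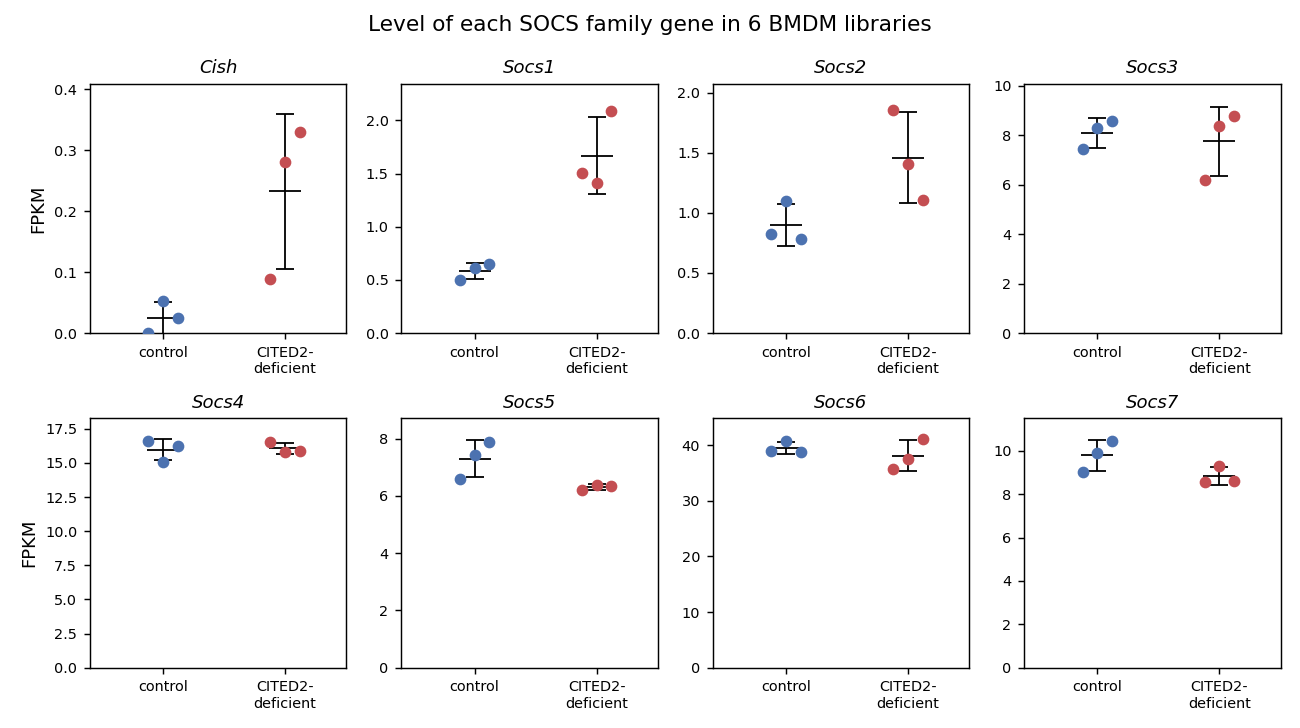
FPKM (linear axis from 0) of each SOCS family gene in the 3 control and 3 CITED2-deficient libraries. Points are libraries, and the long and short bars are the mean and SD (cut at 0 for control *Cish*). The groups are apart for *Cish*, *Socs1*, *Socs2* and *Socs5* and overlap for the other members.

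Regulatory sequence is shown for the cytokine-induced members because they were the ones whose groups separated upward, with *Socs3* as the induced member that did not. Promoters were taken from RefSeq (GRCm38.p6) and were present for 4 of the 8 genes, *Cish*, *Socs1*, *Socs3* and *Socs4*. They were searched on both strands for STAT-type motifs (TTCNNNGAA, or the same ends with 4 bases between them) and for interferon-type motifs (GAAA, a gap of 2 or 3 bases, and GAAA again). Capitals mark matches. The first line is the *Socs1* promoter, the 250 bases before the start on the minus strand (chr16:10785537-10785786). The second is the *Socs3* promoter, 250 bases on the minus strand (chr11:117969367-117969616). The third is the stretch around the RefSeq start of *Cish* on the plus strand (chr9:107296657-107296680).
Socs1: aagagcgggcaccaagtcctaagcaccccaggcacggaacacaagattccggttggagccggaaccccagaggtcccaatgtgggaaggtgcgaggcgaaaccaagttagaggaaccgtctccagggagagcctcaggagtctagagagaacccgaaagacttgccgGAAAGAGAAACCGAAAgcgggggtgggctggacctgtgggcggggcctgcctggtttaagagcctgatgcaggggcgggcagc
Socs3: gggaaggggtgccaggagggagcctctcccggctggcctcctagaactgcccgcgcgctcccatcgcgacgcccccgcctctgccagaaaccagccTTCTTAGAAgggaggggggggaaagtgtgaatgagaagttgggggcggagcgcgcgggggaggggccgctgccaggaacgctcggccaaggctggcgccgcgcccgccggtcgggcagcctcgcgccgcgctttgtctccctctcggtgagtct
Cish: ttTTCCTGGAAagTTCTTGGAAat

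The *Socs1* promoter held 2 overlapping interferon-type matches, GAAAGAGAAA from 83 to 74 bases before the start and GAAACCGAAA from 77 to 68 bases before it, with no STAT-type match. Among 27025 RefSeq promoter windows of 300 bases (250 before and 50 after the start), the interferon-type motif occurred in 3.49% with the gap of 2 bases and in 2.80% with that of 3. *Cish* held 2 STAT-type matches, TTCCTGGAA at bases 1 to 9 and TTCTTGGAA at bases 12 to 20 counted from the start, and none before the start. *Socs3* held 1, TTCTTAGAA, from 154 to 146 bases before the start. TTCNNNGAA occurred in 8.47% of all windows and the form with 4 bases in 6.99%. The *Socs4* window held none of the motifs. A match describes the letters only, and no binding was measured in these libraries.

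*Socs1* encodes a member that inhibits JAK1, JAK2 and TYK2 directly and limits interferon signaling. The gene (ENSMUSG00000038037) lies on chromosome 16, from 10782240 to 10785536 on the minus strand of mm10, and its coding sequence of 212 codons is in 1 exon. The control libraries (replicates 1, 2 and 3, in this order throughout) gave *Socs1* FPKM of 0.502, 0.610 and 0.649, while the CITED2-deficient ones gave 1.51, 1.42 and 2.09. All CITED2-deficient values lay above all control values, and the lowest of them was above the highest control value by more than the control range. Mean FPKM was 0.587 ± 0.0761 in control and 1.67 ± 0.364 with CITED2 deficiency (SD, n = 3 each), a ratio of 2.85.

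On log2(FPKM + 1), a scale that understates changes of genes with low values, *Socs1* was higher by 0.74 (standard error 0.15, 95% interval 0.41 to 1.08, adjusted p = 0.00282 from limma). Its place among the 11687 tested genes, ordered from the largest rise, was 677. In the same fit 51.3% of all tested genes passed in either direction and 16.7% passed as higher, so a rise past the threshold was not rare in these libraries. Among tested genes with a mean of 1 to 2 FPKM, the range of *Socs1* and *Socs2*, 16.6% passed as higher. The control mean of *Socs1* was below 1 FPKM, so the gene entered the test (a mean of at least 1 FPKM over the 6 libraries) through its CITED2-deficient values. It passed under all 15 processing alternatives that tested it, with log2 changes from 0.63 to 1.60.

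The depth behind these values was small. Fragments recovered from the FPKM of *Socs1* numbered 27, 30 and 35 in control and 109, 91 and 155 with CITED2 deficiency. Pooled over libraries and divided by depth, the ratio was 2.87, with an exact 95% interval of 2.28 to 3.65 that covers counting error only. Limma-voom on the recovered fragments gave a log2 change of 1.60 (standard error 0.26, adjusted p = 2.87e-05). The largest of the CITED2-deficient values, in replicate 3, did not carry the call, since the log2 change without it was 0.63 (adjusted p = 0.0148 from limma).

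*Cish* encodes the founding member of the family, a classical STAT5 target that dampens receptors of the growth hormone, erythropoietin and interleukin 2 type. The gene (ENSMUSG00000032578) lies on chromosome 9, from 107296026 to 107302784 on the plus strand of mm10, and its 257 codons are spread over 3 exons. Control FPKM of *Cish* was 0, 0.0522 and 0.0238, and CITED2-deficient FPKM was 0.0889, 0.280 and 0.329. These values rest on 0, 2 and 1 fragments and on 5, 14 and 19 fragments, respectively. The control group was close to the limit of detection, and the groups did not overlap.

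The depth-corrected ratio of the pooled *Cish* fragments was 9.43, with an exact 95% interval of 2.99 to 47.7 for counting error only. The gene was below the filter and was not tested in the main fit. Without the filter limma gave a log2 change of 0.26 on log2(FPKM + 1) (95% interval 0.072 to 0.45, adjusted p = 0.0531), which missed the threshold. In that fit 26.2% of all 22248 genes passed in either direction and 9.9% as higher. Limma-voom on the recovered fragments without a filter, a fit chosen after the data had been seen, gave 2.90 (standard error 0.78, adjusted p = 0.00630), where 25.9% of genes passed in either direction and 13.9% as higher. The antisense genes Gm17040 and Gm17041 overlap *Cish*. The libraries were stranded, but the sources used here do not give the strand setting of the counting, so fragments from these genes cannot be separated from *Cish*.

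*Socs2* encodes a member that limits growth hormone signaling and has the shortest coding sequence of the family at 198 codons, in 2 exons. The gene (ENSMUSG00000020027) is on chromosome 10, from 95385362 to 95417180 on the minus strand, the chromosome that also carries *Cited2*. Control libraries gave *Socs2* FPKM of 0.820, 1.10 and 0.781, and CITED2-deficient libraries gave 1.86, 1.40 and 1.11. The groups were separate by a narrow margin, because control replicate 2 and CITED2-deficient replicate 3 had nearly the same value. Mean FPKM was 0.901 ± 0.174 against 1.46 ± 0.378 (SD, n = 3 each).

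The log2 change of *Socs2* was 0.36 (standard error 0.16, 95% interval 0.0039 to 0.72), and it did not pass in limma (adjusted p = 0.0846). Like *Socs1* it had a control mean below 1 FPKM and entered the test through its CITED2-deficient values. The recovered fragments numbered 22, 27 and 21 against 67, 45 and 41, with a pooled ratio of 1.63 (exact 95% interval 1.22 to 2.19, counting error only). Limma-voom on these fragments gave 0.77 and passed (adjusted p = 0.0420), where 46.4% of tested genes passed in either direction and 24.0% as higher. CITED2-deficient replicate 1 held the highest *Socs2* value, and without it the limma estimate was 0.25 (adjusted p = 0.253).

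*Socs3* encodes the main brake on receptors that use gp130, such as that of interleukin 6, and on the granulocyte colony-stimulating factor receptor. The gene (ENSMUSG00000053113, chromosome 11, 117966079 to 117970047, minus strand) codes for 225 codons in 1 exon. FPKM of *Socs3* read 7.43, 8.29 and 8.57 in control against 6.18, 8.36 and 8.77 with CITED2 deficiency. The groups overlapped, and both the lowest and the highest value were from CITED2-deficient libraries. The log2 change was -0.064 (95% interval -0.33 to 0.20, adjusted p = 0.677 from limma). That interval leaves out a rise of the size measured for *Socs1*, but the 2 changes were not tested against each other. The estimate was 0.075 without CITED2-deficient replicate 1 and between 0.018 and 0.029 under quantile, median-ratio and voom scaling, so no direction can be given.

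**Figure D2:**
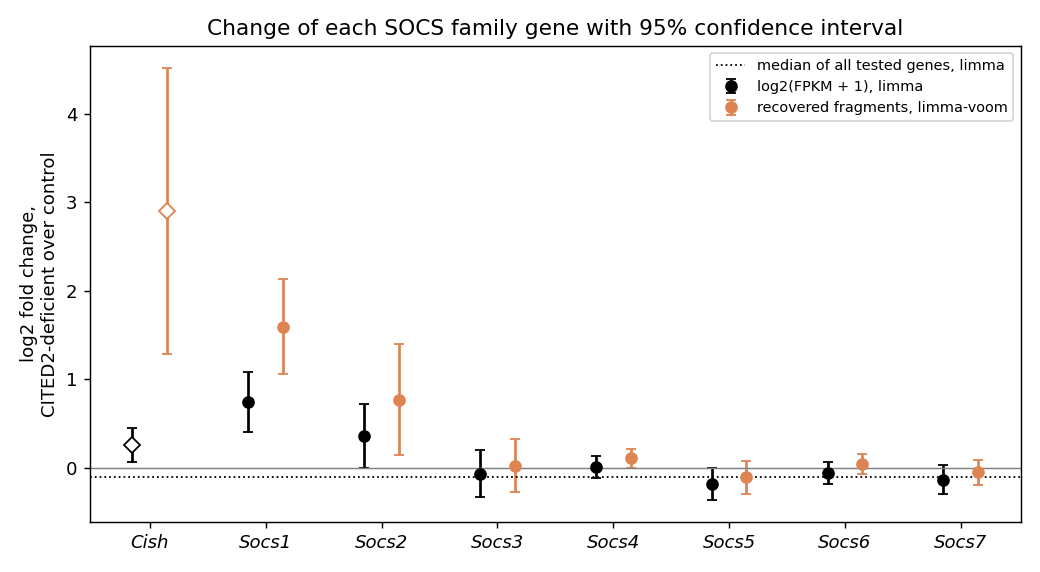
Log2 fold change of each SOCS family gene (points) with its 95% confidence interval (bars), from limma on log2(FPKM + 1) in black and from limma-voom on recovered fragments in orange. Open diamonds mark *Cish*, which is from the fits without a filter. The intervals of *Cish*, *Socs1* and *Socs2* lie above 0 in both fits, and those of *Socs3*, *Socs6* and *Socs7* include 0 in both. That of *Socs4* includes 0 in limma only, and that of *Socs5* in limma-voom only. The intervals are not adjusted for the number of genes tested. The dotted line is the median of all tested genes at -0.10.

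*Socs4* and *Socs5* encode closely related proteins known for promoting the degradation of the epidermal growth factor receptor. *Socs4* FPKM was 16.6, 15.1 and 16.2 in control against 16.6, 15.8 and 15.9 with CITED2 deficiency. The values interleaved, and the log2 change was 0.0093 with a narrow 95% interval of -0.12 to 0.13 (adjusted p = 0.901 from limma). *Socs5* FPKM was 6.60, 7.41 and 7.88 against 6.19, 6.39 and 6.34. All 3 CITED2-deficient values of *Socs5* lay below the control values, and they were closer together, with a coefficient of variation of 1.65% against 8.87%. Its log2 change of -0.18 (95% interval -0.36 to -0.0013) did not pass (adjusted p = 0.0856 from limma), although it did without control replicate 1 (-0.24, adjusted p = 0.0404). Non-overlapping groups were found for 59.9% of all tested genes, with lower CITED2-deficient values for 40.9%.

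*Socs6* and *Socs7* encode members that bind insulin receptor substrates and receptor tyrosine kinases. *Socs6*, the family gene with the highest level, had FPKM of 39.0, 40.8 and 38.8 in control against 35.7, 37.5 and 41.1 with CITED2 deficiency. The CITED2-deficient values spread around the control values, and the log2 change was -0.055 (95% interval -0.18 to 0.069, adjusted p = 0.428 from limma), turning to between 0.042 and 0.050 under median-ratio and voom scaling. *Socs7* FPKM was 9.01, 9.91 and 10.4 against 8.57, 9.30 and 8.61. These groups overlapped through CITED2-deficient replicate 2, and the log2 change was -0.13 (95% interval -0.30 to 0.032, adjusted p = 0.160 from limma). Recovered fragments of *Socs5* and *Socs6* were not whole numbers, so their voom values are less certain than those of the other members.

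Read as a family, 1 member passed as higher, 6 were tested without passing, and *Cish* was not tested. Over all tested genes 51.3% passed in either direction and 16.7% as higher. Of the 5 members with a mean of at least 1 FPKM in both genotypes, 0 passed in limma, 1 (*Socs5*) had an unadjusted p below 0.05, and 0 passed in limma-voom. Among tested genes of 5 to 50 FPKM, the range of these 5, 51.0% passed in either direction. Across all 8 genes, values were separate and above control for *Cish*, *Socs1* and *Socs2*, which 14.7% of all listed genes also showed. Groups were apart, upward or downward, for 40.0% of listed genes. In an exact permutation test of the difference in mean log2(FPKM + 1) (two-sided), *Cish*, *Socs1*, *Socs2* and *Socs5* each had p = 0.1. That is the smallest value that 3 against 3 libraries allow. It follows from groups that do not overlap and adds nothing to that description. The median log2 change over the 7 tested members was -0.055, beside -0.10 over all tested genes. With median-ratio scaling the members' median was 0.046.

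**Figure D3:**
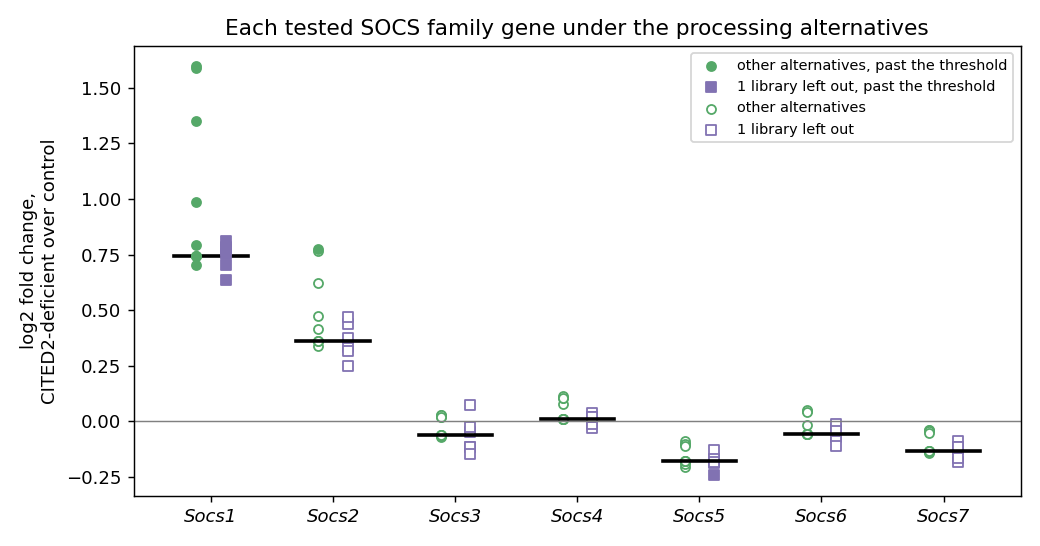
Log2 fold change of each tested SOCS family gene under the processing alternatives (circles) and with each library left out in turn (squares). Black lines are the reported values, and filled symbols passed the threshold. *Socs1* is filled throughout, from 0.63 to 1.60, *Socs2* is filled at 0.77 (limma-voom) and *Socs5* at -0.24 (without control replicate 1).

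The order of the levels differed little between genotypes. In FPKM, which is scaled to transcript length, the control order was *Socs6*, *Socs4*, *Socs7*, *Socs3*, *Socs5*, *Socs2*, *Socs1* and *Cish*. Neighbors in this order did not overlap across libraries, except *Socs3* and *Socs5*. In CITED2-deficient BMDMs *Socs1* stood before *Socs2*, with overlapping values, and *Socs3* overlapped both *Socs7* and *Socs5*. The summed FPKM of the family was 82.2 ± 1.89 in control against 80.4 ± 3.80 with CITED2 deficiency (SD, n = 3 each). *Socs6* made up 48.1% ± 1.36 of that sum in control and 47.3% ± 1.27 in CITED2-deficient BMDMs. *Socs1* took 0.713% ± 0.0776 and 2.07% ± 0.370, so the members whose groups separated upward made up little of the summed FPKM in either genotype. The order and the shares depend on the length assigned to each gene. Fragments were recovered with the mean length over annotated transcripts, 2162.1 bases for *Socs6*, 1096 for *Socs3* and 2846.5 for *Socs1*. The transcripts with the longest coding sequence have 6036, 2552 and 2908 bases. Order and shares under those lengths were not computed.

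Gene structure divided the family as well. The coding sequence was in 1 exon for *Socs1*, *Socs3*, *Socs4*, *Socs5* and *Socs6*, which holds for 5.05% of 10583 tested coding genes. *Socs4*, *Socs5*, *Socs6* and *Socs7* had 436 to 579 codons against 198 to 257 in the cytokine-induced members. The pentamer ATTTA, the core of the AU-rich elements of unstable mRNAs, occurred 0 times in the 3' UTR of *Socs1*. It occurred 2 times in *Socs2*, 3 in *Cish*, 4 in *Socs3* and *Socs5*, 5 in *Socs7*, 10 in *Socs6* and 17 in *Socs4*. Per kilobase this was 0 to 3.28, beside a median of 1.24 over all tested coding genes. The members whose groups separated upward had 0 (*Socs1*), 1.72 (*Socs2*) and 2.76 (*Cish*) per kilobase, and *Socs3*, whose groups overlapped, had 2.71. A link between these pentamers and the changes was not tested.

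For likeness, the tested genes with the highest Pearson correlation with *Socs1* on log2(FPKM + 1) over the 6 libraries were *Ssfa2* (r = 0.999), *Egln3* (r = 0.993), a prolyl hydroxylase of the hypoxia response, and *Kif1c* (r = 0.992), a kinesin motor. The 6 points fall into the genotype groups, and 1169 tested genes had r above 0.9, so these values describe a ranking and carry no test.

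The genes around the family were counted from lists arranged by role. Of 108 tested JAK-STAT genes outside the family, 49 were higher, 35 were lower and 24 did not pass, and 7 entered the test through the values of 1 group. Over all tested genes 16.7% passed as higher and 34.6% as lower, the shares to set beside the list counts here and below. With median-ratio scaling 2696 of all 11687 tested genes passed as higher and 2490 as lower. Among the Janus kinases, *Jak2* was higher by 0.29 and *Jak3* was lower by 0.32 on the log2 scale. *Tyk2* (0.11) did not pass, although it did as higher under quantile, median-ratio and voom scaling. *Jak1* was lower by 0.11, a call lost without the variance trend and under median-ratio and voom scaling, where the values were near 0. Of the STAT factors, *Stat2* went from 59.3 ± 2.36 to 257 ± 12.1 FPKM (SD, n = 3 each). Its log2 change of 2.10 exceeded every change within the SOCS family on log2(FPKM + 1). With limma-voom and no filter the order turned, with *Cish* at 2.90 on few fragments and *Stat2* at 2.21. *Stat4*, the 1 STAT gene that entered the test through the values of 1 group, was lower by 0.63. *Stat6* was higher by 0.11, a call lost without the variance trend (adjusted p = 0.0551), and by 0.22 with median-ratio or voom scaling. *Stat3* (-0.13) and *Stat5b* (-0.13) passed as lower, but neither passed under quantile, median-ratio or voom scaling, and *Stat5b* also lost its call when any library was left out. *Stat5a* did not pass (-0.14, adjusted p = 0.179 from limma).

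Ligands and receptors of the pathway moved both ways. Of 41 cytokine genes named, 21 are listed and 7 were tested, with 2 higher, 3 lower and 2 that did not pass. The largest changes were falls of *Ebi3*, a subunit of interleukins 27 and 35 (-0.85), and *Il4* (-0.73). Of 25 tested receptor genes 12 were higher and 10 lower (15 and 9 with median-ratio scaling). The largest changes were those of *Il12rb1* (1.43), which pairs for interleukin 12, and *Ifngr1* (-0.92), the ligand-binding chain for interferon gamma. *Il12rb1*, with a mean of 0.571 FPKM in control and 3.23 FPKM with CITED2 deficiency, entered the test through its CITED2-deficient values. It is 1 of 3 receptor genes that entered through the values of 1 group.

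Of 13 other brakes on the pathway, 5 were higher, 4 lower and 4 did not pass, and with median-ratio scaling 7 were higher and 3 lower. *Usp18*, which restrains the type I interferon receptor, went from 21.9 ± 2.62 to 112 ± 5.30 FPKM (log2 change 2.30, standard error 0.076, adjusted p = 2.58e-08 from limma). *Cblb*, a ubiquitin ligase, was higher by 0.75. The phosphatase gene *Ptpn6* was higher by 0.092, a call lost without any one of control replicates 1 to 3 or CITED2-deficient replicates 2 and 3. The call was also lost without the filter, without the variance trend and with the replicate block. Under quantile, median-ratio and voom scaling *Ptpn6* passed as higher, by 0.16, 0.20 and 0.20. *Ptpn1* did not pass (0.036) except under median-ratio and voom scaling. Of 9 genes for the cullin-5 ligase that the SOCS box recruits, 0 were higher and 3 were lower in limma, with *Rnf7* at -0.31 and *Eloc* at -0.14. Over all tested genes 34.6% passed as lower in the same fit, so this count is near the share of all genes. *Eloc* did not pass under quantile, median-ratio or voom scaling or without any one of control replicates 1 and 3 and CITED2-deficient replicates 2 and 3. With median-ratio or voom scaling 1 of the 9 genes passed.

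**Figure D4:**
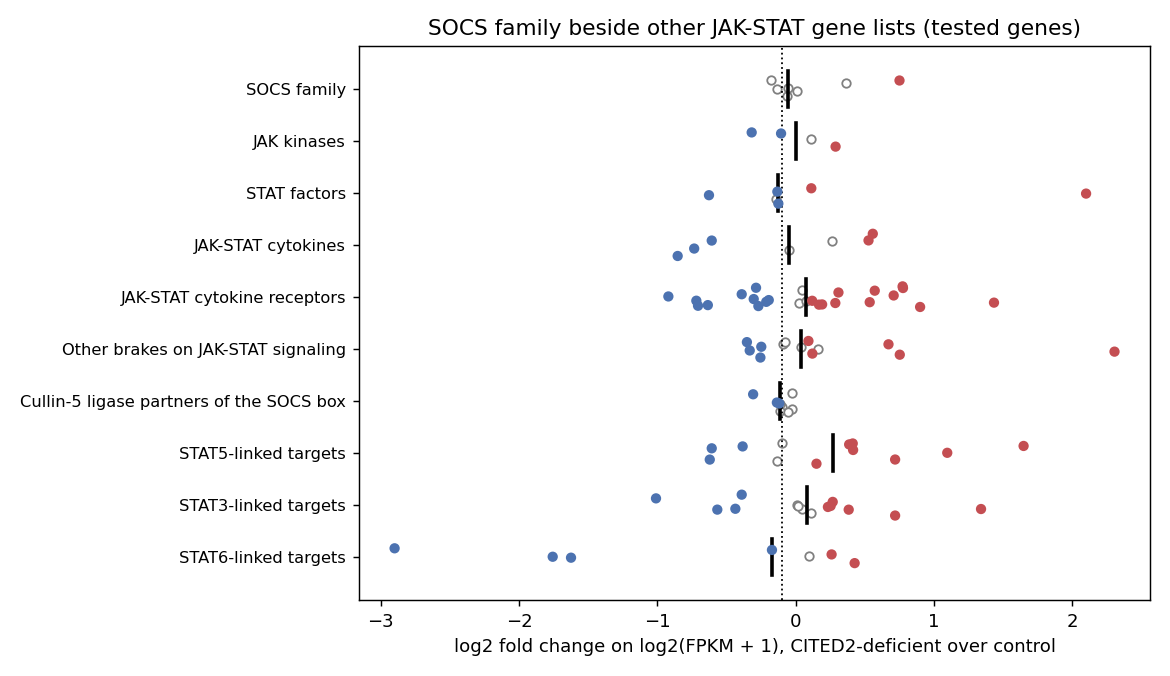
Log2 fold change on log2(FPKM + 1) of each tested gene (points) in the SOCS family and in 9 other JAK-STAT lists. Red and blue points passed as higher and lower, open points did not pass, black bars are list medians, and the dotted line is the median of all tested genes at -0.10. The STAT5-linked list has a median of 0.27, beside -0.055 for the SOCS family.

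Target lists named for the STATs also moved both ways. Of 12 STAT5-linked targets 7 were higher and 3 lower (median 0.27), led by the cell cycle genes *Ccnd2* (1.65) and *Cdkn1a* (1.10). *Bcl6*, which is in that list, was higher by 0.15 (adjusted p = 0.0434 from limma), a call lost in 5 of the 6 fits that left out a library, all but that without control replicate 3, and also without the filter or the variance trend. With median-ratio scaling the *Bcl6* change was 0.25 (adjusted p = 0.0050 from limma) and with limma-voom it was 0.26 (adjusted p = 0.000131). Of 14 STAT3-linked targets 6 were higher and 4 lower (median 0.080), or 9 and 4 with median-ratio scaling (median 0.18), with *Il1rn* at 1.34 and *Cebpd* at -1.01. Of 7 STAT6-linked targets 2 were higher and 4 lower (median -0.17), or 3 and 3 with median-ratio scaling (median -0.068), with falls of the lectin genes *Clec10a* (-2.90) and *Mrc1* (-1.76). Within the SOCS family, *Socs3* and *Cish* are often cited as targets of STAT3 and STAT5, and their changes were -0.064 and, without the filter, 0.26. The scale of log2(FPKM + 1) understates the change of a gene as low as *Cish*. With limma-voom the changes were 0.027 for *Socs3* and, without the filter, 2.90 for *Cish*. The latter fit was chosen after the data had been seen and rests on 0 to 2 *Cish* fragments per control library.

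Markers of other cells were read in the same libraries. Macrophage markers summed to 5818 to 5889 FPKM in control and 5472 to 5555 FPKM in CITED2-deficient BMDMs, and of 9 tested 1 was higher (*Fcgr1*) and 5 were lower (*Adgre1*, *Csf1r*, *Itgam*, *Lyz2* and *Mertk*). All 8 tested fibroblast or stromal markers of 10 were higher, but 2 of them entered the test only through their CITED2-deficient values. Over all tested genes 16.7% passed as higher and 34.6% as lower. The stromal list summed to 54.0 to 63.8 FPKM in control and to 206 to 599 FPKM in CITED2-deficient BMDMs. The sum was highest in replicate 1, and none of the genes was at 0 in all libraries. The part of stromal markers in the *Socs1*, *Socs2* and *Cish* values was not tested. In replicate 1 *Socs1* was at 1.51 FPKM, between the other CITED2-deficient values, *Socs2* was at its highest (1.86 FPKM) and *Cish* at its lowest CITED2-deficient value (0.0889 FPKM). Without that library the log2 change was 0.78 for *Socs1* (adjusted p = 0.00651 from limma) and 0.25 for *Socs2* (adjusted p = 0.253). The sums of neutrophil lineage markers overlapped (727 to 796 FPKM in control and 663 to 782 FPKM in CITED2-deficient BMDMs), while 2 of 8 tested markers were higher (*Ltf* and *Retnlg*) and 5 were lower (*Camp*, *Elane*, *Mpo*, *Ngp* and *S100a8*). No marker of dendritic cells, of T, NK or B cells or of mast cells reached the filter. Dendritic cell markers summed to 0.867 to 1.23 FPKM in control and to 2.28 to 2.43 FPKM in CITED2-deficient BMDMs, and mast cell or basophil markers to 1.04 to 1.53 FPKM and 0.421 to 0.579 FPKM, so neither overlapped. T, NK or B cell markers overlapped (1.43 to 2.35 FPKM and 1.38 to 2.38 FPKM). The part of these lists in the *Socs1*, *Socs2* and *Cish* values was not tested either. In bulk RNA, fewer cells of a type and less RNA per cell cannot be told apart.

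CITED2-deficient libraries were also deeper, with 22583989 to 26100400 recovered fragments against 17289286 to 18952084 in control, a ratio of 1.34. The authors' FPKM are scaled to library size, and the pooled fragment ratios of *Cish*, *Socs1* and *Socs2* were divided by depth.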

How the data were processed

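Total RNA from BMDMs was depleted of ribosomal RNA and made into stranded libraries. The authors used STAR for mapping to mm10 and Cuffdiff with the GENCODE annotation, and deposited 1 FPKM value per gene and library. The sources used here give neither tool versions nor the annotation release. Fragments were recovered from the FPKM with transcript lengths of GENCODE vM21, which matched 22239 of the 22248 genes, and 95.98% of the matched genes were within 0.02 of whole numbers in all 6 libraries. Replicate libraries differed by more than sampling noise.

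Genes with a mean of at least 1 FPKM (11687) were fitted on log2(FPKM + 1) with limma 3.58.1 (R 4.3.3), with a variance trend, Benjamini-Hochberg adjustment over all tested genes, a threshold of 0.05 and no fold threshold. The fit was tested on simulated data. Cuffdiff needs alignments and was not repeated. Alternatives were pseudocounts of 0.1 and 0.5, no filter, a mean FPKM of at least 5, quantile and median-ratio scaling, no trend, a replicate block, a fold of at least 1.5, each library left out in turn, and limma-voom on recovered fragments. Limma-voom without a filter was added after the data had been seen.

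The members and all lists were chosen with earlier results of these data known. Named genes are the 8 members, *Cited2*, the JAKs and STATs, the 2 largest changes past the threshold in each list, *Bcl6*, *Ptpn1*, *Ptpn6*, *Usp18*, and the 3 genes most correlated with a member past the threshold. Transcript features come from the GENCODE annotation and promoters from RefSeq (GRCm38.p6). Protein sequences were not used here, and some genes under this rule are left out.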

Additional observations from a re-analysis of the deposited data

How the results depend on the processing

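The count of SOCS family genes past the threshold was 1 (*Socs1*) in most alternatives. It was 0 with a mean FPKM of at least 5, a filter that removes *Socs1*, 2 with limma-voom (*Socs1* and *Socs2*), 2 with limma-voom and no filter (*Cish* and *Socs1*), and 1 to 2 when a library was left out, with *Socs5* joining without control replicate 1. The count of other JAK-STAT genes, 84, was 39 when a fold of at least 1.5 was required, and 76 to 79 when a library was left out. Over all genes 5994 passed, 32.5% of them higher, and 1549 passed with a fold of at least 1.5. The share higher was 52.0% with median-ratio scaling, 51.7% with limma-voom and 53.7% with limma-voom and no filter.

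The sign turned for *Socs3* with quantile normalization (0.018), median-ratio scaling (0.029), limma-voom (0.027) and limma-voom with no filter (0.018), and ranged from -0.15 to 0.075 when a library was left out. It turned for *Socs6* with median-ratio scaling (0.046), limma-voom (0.050) and limma-voom with no filter (0.042). *Socs4* ranged from -0.029 to 0.037 when a library was left out. The cause was not tested.

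With the replicate number as a block, 1 SOCS family gene, 78 other JAK-STAT genes and 5708 of all genes passed. Deviations of libraries with the same number correlated at 0.0078 to 0.040 over all tested genes. Such a correlation cannot exclude a pairing that affects only some genes, so whether libraries of the same number were paired is not known. *Cish*, with 0 to 2 control fragments, is limited by depth.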
